A study of Mus musculus with 7 samples.

Results

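The receptors examined here are those through which contractile agonists act on airway smooth muscle. The set comprises 10 genes fixed by name: the muscarinic acetylcholine receptors Chrm1, Chrm2 and Chrm3, the serotonin receptor Htr2a, the endothelin receptor Ednra, the bradykinin receptor Bdkrb2, the cysteinyl leukotriene receptor Cysltr1, the histamine receptor Hrh1, the thromboxane receptor Tbxa2r and the adenosine receptor Adora1. Every probe set whose single gene symbol in the platform annotation is one of these names was taken, which gave 10 probe sets for 6 of the 10 genes, out of 45037 probe sets and 18193 named genes in all. Chrm1, Bdkrb2, Cysltr1 and Hrh1 had 2 probe sets each, and Chrm3 and Tbxa2r had 1 each. Chrm2, Htr2a, Ednra and Adora1 had none in the annotation used and were not analysed here.

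Levels were compared between left lungs of 3 Gata5 knockout mice (Gata5 KO) and 4 Wild Type mice (WT), all 8 weeks old, with 1 Affymetrix Mouse Genome 430 2.0 array per mouse. Gata5 is a DNA-binding regulator of transcription with GATA-type zinc fingers. By their labels the samples are biological replicates, 1 mouse each. The sources used here give neither the strain and sex of the mice nor which exons are missing. WT replicate 4 stood apart in sex-linked genes: X-linked Xist 1427262_at read 11.51 there and 3.66 to 3.89 on the other 6 arrays, and Y-linked Eif2s3y 1417210_at read 3.71 there and 9.30 to 9.68 on the others. This is the pattern of a female mouse among males, so results that turn on this array are also given without it. The whole left lung holds many cell types, so fewer cells of a type and less RNA per cell cannot be told apart.

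These receptors are G protein-coupled receptors. In airway smooth muscle most of the contractile ones couple to Gq, which activates phospholipase C, releases calcium from internal stores and so leads to phosphorylation of the myosin light chain and shortening of the muscle. The M2 muscarinic and A1 adenosine receptors couple to Gi, which lowers cyclic AMP. Their agonists come from different sources: acetylcholine from parasympathetic nerves, histamine and leukotrienes from mast cells and other leukocytes, thromboxane from platelets and macrophages, bradykinin from cleavage of kininogen. Several of the receptors are also carried by cells other than smooth muscle, so a whole-lung level does not belong to the muscle alone.

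Because these receptors are often scarce transcripts, each level was first set against a background. The table holds no detection calls, so the background was taken from 80 probe sets of 71 olfactory and vomeronasal receptor genes, which are transcribed mainly in the nose. On the log2 scale of the table, their median was 4.25, 4.20 and 4.25 on the 3 KO arrays and 4.11, 4.14, 4.16 and 4.09 on the 4 WT arrays. The KO medians lay above all WT medians (exact permutation p = 0.0286, the smallest that the 35 splits of the arrays can give; adjusted p = 0.0619 over 13 such values). A probe set counted as above background on an array where it exceeded that array's 95th percentile of these 80, which was 6.11, 5.82 and 5.99 on KO arrays and 5.72, 5.86, 5.86 and 5.86 on WT arrays. By this measure 3 of the 10 receptor probe sets were above background on all 7 arrays, 3 on some and 4 on none. Of all 45037 probe sets 22202 were above background on all 7 arrays and 19374 on none. The receptor count on all 7 arrays was 1 with the 99th percentile as the limit. It was 6 with the 90th percentile or with the 40th percentile of all probe sets of the array.

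No receptor passed the test between KO and WT lungs. Of the 10 probe sets, 0 passed at an adjusted p under 0.05 (limma, Benjamini-Hochberg adjustment over all 45037 probe sets). An unadjusted p under 0.05 was found at 1 of the 10, a Cysltr1 probe set, beside 13224 of all 45037 probe sets. In the same fit 9.89% of all probe sets passed, 3.53% higher and 6.37% lower in KO, and among probe sets above background on all 7 arrays 15.7% passed, against 2.54% of those above background on none. The fitted log2 differences of the receptors lay between -0.20 and 0.27, with adjusted p between 0.143 and 0.951. For 9 of the 10 the 95% interval included 0, and at 0 of the 10 were the KO and WT arrays without overlap, which was seen at 23.4% of all probe sets. The count of all probe sets that passed was 4456, and it fell to 2300, 2174, 2906, 2257 and 1974 without KO replicate 3 and WT replicates 1 to 4 in turn. The receptor count was also 0 with each array left out. A count of 0 cannot fall but can rise, and in these fits with fewer arrays it did not.

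**Figure D1:**
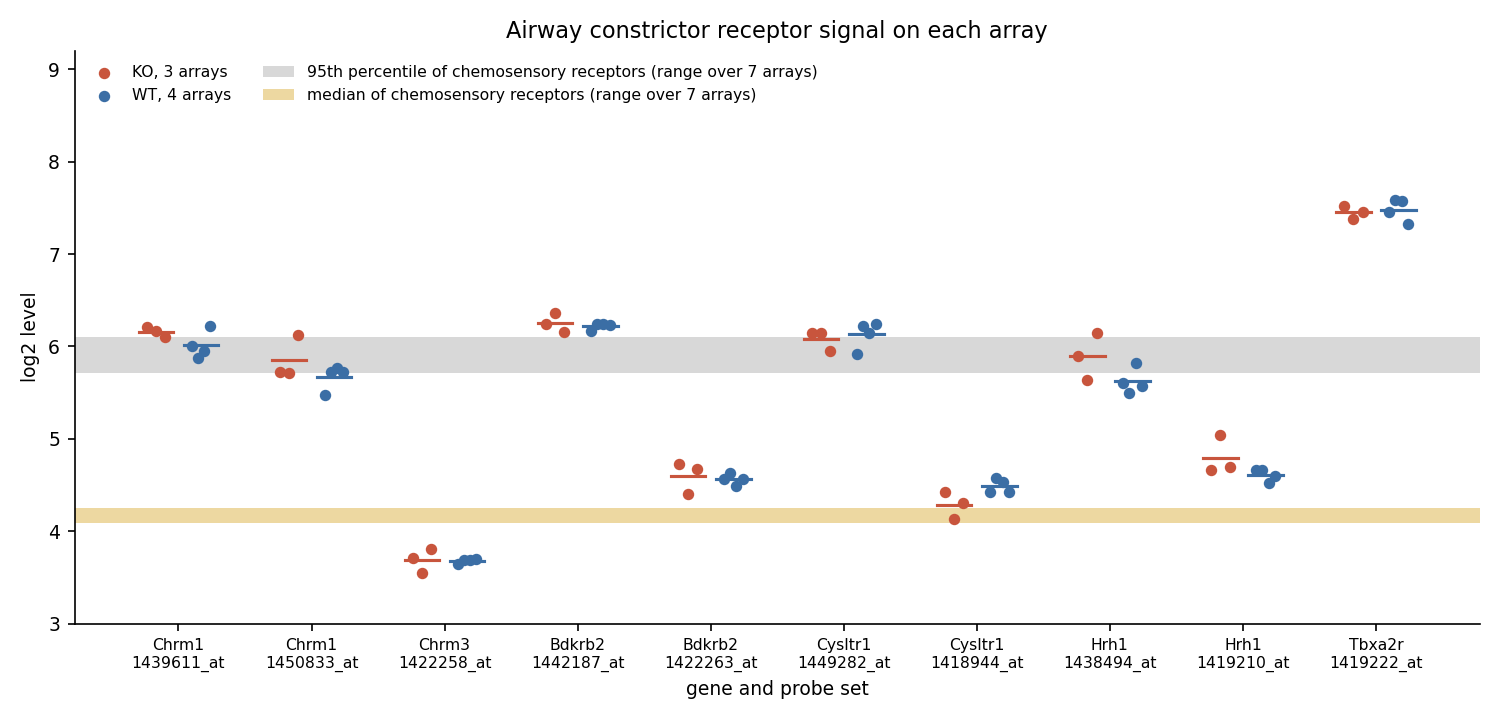
Log2 level of each receptor probe set (horizontal axis) on each array, with 3 KO arrays left of 4 WT arrays and a bar at each group's mean; the bands give the range over the 7 arrays of the background's 95th percentile and median. Tbxa2r lies above the upper band on all arrays, Chrm3 below the lower band, and no probe set has KO and WT points fully apart.

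**Figure D2:**
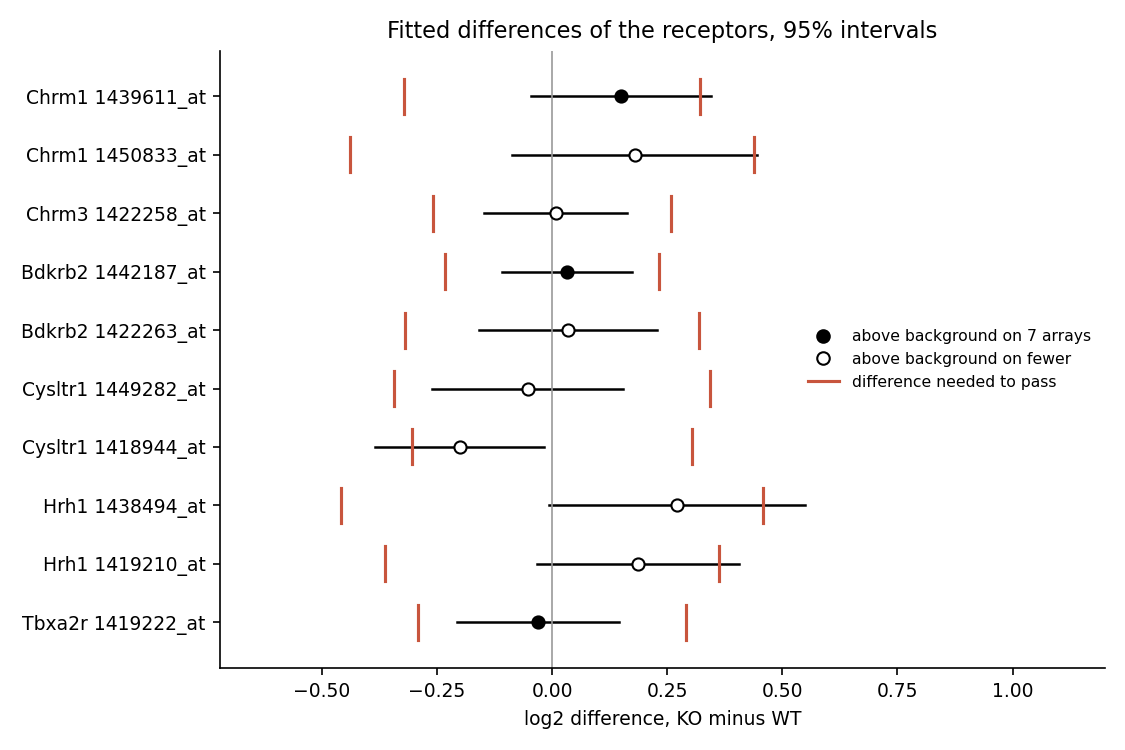
Fitted log2 difference, KO minus WT, with its 95% interval for each receptor probe set; filled points mark probe sets above background on all 7 arrays, and red ticks the difference that would have passed at the same standard error. All points lie between -0.20 and 0.27 and inside their red ticks.

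Among the muscarinic receptors, Chrm1 encodes M1, a Gq-coupled receptor best known from nerve cells. At probe set 1439611_at its log2 level was 6.21, 6.17 and 6.10 on KO arrays and 6.0, 5.87, 5.95 and 6.22 on WT arrays, above background on all 7. The highest WT array exceeded every KO array and the other 3 WT arrays lay below every KO array. KO lungs averaged 6.16 ± 0.06 (SD, n = 3) and WT lungs 6.01 ± 0.15 (SD, n = 4), a ratio of 1.11-fold with a 95% interval of 0.969 to 1.27 (limma adjusted p = 0.268). The highest WT array was WT replicate 4, the one that stood apart in sex-linked genes, and without it the log2 difference was 0.22 against 0.15 with all arrays (limma adjusted p = 0.103). The second Chrm1 probe set, 1450833_at, had 5.72, 5.71 and 6.12 on KO arrays and 5.47, 5.72, 5.77 and 5.72 on WT arrays. It exceeded background only on KO replicate 3, which was also its highest value, and the other 2 KO arrays lay within the WT range. Its log2 difference was 0.18 (95% interval -0.09 to 0.45; limma adjusted p = 0.324), and 0.05 without KO replicate 3.

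Chrm3 encodes M3, the Gq-coupled receptor that carries most of the cholinergic contraction of airway smooth muscle. Its only probe set, 1422258_at, read 3.71, 3.55 and 3.81 on KO arrays and 3.65, 3.69, 3.69 and 3.70 on WT arrays. Every value lay below the median of the olfactory and vomeronasal set on its array, so the probe set gave no signal above background in either group. The measured means were 3.69 ± 0.13 in KO and 3.68 ± 0.02 in WT lungs (SD, n = 3 and 4; limma adjusted p = 0.951). A difference in the transcript was therefore not detectable at this probe set, and no ratio is given.

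Hrh1 encodes the H1 histamine receptor, which couples to Gq and is carried by smooth muscle and endothelium. Both of its probe sets read higher on average in KO lungs, and neither passed by itself. Probe set 1438494_at had 5.90, 5.64 and 6.14 on KO arrays and 5.60, 5.50, 5.82 and 5.57 on WT arrays. The KO array with the lowest value lay below 1 WT array, and only KO replicate 3 was above background. The difference was 0.27 on the log2 scale (95% interval -0.01 to 0.55; limma adjusted p = 0.179). Probe set 1419210_at had 4.66, 5.04 and 4.69 on KO arrays and 4.66, 4.66, 4.52 and 4.60 on WT arrays, all of them below the background limit. Here KO replicate 2 was the highest array, whereas at 1438494_at it was the lowest KO array. The difference was 0.19 (95% interval -0.03 to 0.41; limma adjusted p = 0.229), and it was 0.07 without KO replicate 2.

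The mean of the 2 Hrh1 probe sets was the one receptor value with no overlap between the groups. It was 5.28, 5.34 and 5.42 on KO arrays and 5.13, 5.08, 5.17 and 5.09 on WT arrays. In a fit of the mean of all probe sets of each gene, Hrh1 had a log2 difference of 0.23 (95% interval 0.11 to 0.35) and passed (limma adjusted p = 0.0312), as 1 of the 6 receptors. In that fit 9.61% of all genes passed and 26.3% had groups without overlap. The call was lost without any single array except KO replicate 1 (adjusted p 0.0524 to 0.0824), and after a further quantile normalization (log2 difference 0.17, adjusted p = 0.0861) or cyclic loess (0.16, adjusted p = 0.0953). Restricted to the 5 mice numbered lowest in the labels (3 KO and 2 WT), the log2 difference was 0.24 and the call was also lost (adjusted p = 0.169). The background median moved the same way, by 0.11 between the group means, and 68 of the 80 background probe sets were higher in KO. Its part in the Hrh1 difference was not tested.

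Since Hrh1 had the largest difference and the deleted gene encodes a GATA factor, the promoters of the receptors were searched for the letters that GATA factors bind, namely AGATAA or AGATAG, and likewise TGATAA or TGATAG, on both strands. These 4 words differ from each other, so no position counts under more than one of them. RefSeq promoter windows of 300 bases, from 250 before to 50 after a transcript start in the mouse assembly GRCm38.p6, were available for 8 of the 10 genes, including Chrm3, Bdkrb2, Hrh1 and Tbxa2r. Of their 13 windows 3 held a match, all of them of Hrh1, which has 4 windows. Of the 8 windows of receptors with a probe set 37.5% held one, and of all 32851 windows 29.8%. Chrm1 and Cysltr1 had no window and could not be searched. The stretches of the 3 Hrh1 windows are given 5′ to 3′ on the + strand, which is the gene's own, with the match in capitals; the first 2 matches are the reverse complements of AGATAA and TGATAA.
Hrh1, chr6:114397686-114397723, match 245 bases before the start: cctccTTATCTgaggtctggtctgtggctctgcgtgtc
Hrh1, chr6:114403439-114403498, match 200 bases before the start: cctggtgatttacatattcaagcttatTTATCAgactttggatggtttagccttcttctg
Hrh1, chr6:114458353-114458412, match 142 bases before the start: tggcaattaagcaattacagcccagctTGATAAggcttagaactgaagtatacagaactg
Each of the 3 windows lies at a different annotated start of the gene, and which start the 2 probe sets report on was not tested. A match describes letters in a window and was not set against binding data.

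Bdkrb2 encodes B2, the constitutive bradykinin receptor. Probe set 1442187_at had 6.24, 6.36 and 6.16 on KO arrays and 6.17, 6.24, 6.24 and 6.23 on WT arrays, above background on all 7. The KO arrays spread on both sides of the WT arrays. The ratio of KO to WT was 1.02-fold with a 95% interval of 0.928 to 1.13 (limma adjusted p = 0.733), the narrowest interval among the 10 probe sets. The second probe set, 1422263_at, was above background on no array and read 4.73, 4.40 and 4.67 in KO and 4.57, 4.63, 4.49 and 4.57 in WT lungs. Its log2 difference was 0.04 (95% interval -0.16 to 0.23; limma adjusted p = 0.798).

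Cysltr1 encodes the receptor for leukotriene D4 and is the target of the leukotriene antagonist montelukast. Probe set 1449282_at read 6.14, 6.14 and 5.95 on KO arrays and 5.92, 6.22, 6.14 and 6.24 on WT arrays, above background on 6 of 7. The groups overlapped over most of their range, with a log2 difference of -0.05 (95% interval -0.26 to 0.15; limma adjusted p = 0.710). Probe set 1418944_at had 4.42, 4.13 and 4.31 on KO arrays and 4.42, 4.58, 4.53 and 4.42 on WT arrays, above background on none. The highest KO array equalled the lowest 2 WT arrays and the other 2 KO arrays lay below all WT arrays. The log2 difference was -0.20 (95% interval -0.38 to -0.02), with an unadjusted p of 0.0359 and a limma adjusted p of 0.143. After a further quantile normalization it was -0.28 and passed (limma adjusted p = 0.0480). The gene lies on chromosome X. Without WT replicate 4, which stood apart in sex-linked genes, the Cysltr1 differences were -0.02 and -0.22.

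Tbxa2r encodes the thromboxane A2 receptor, which contracts smooth muscle and activates platelets. Its probe set 1419222_at was the one receptor probe set that also exceeded the background's 99th percentile on every array. It read 7.52, 7.38 and 7.45 in KO lungs and 7.45, 7.58, 7.57 and 7.32 in WT lungs. The KO values fell inside the WT range, whose lowest and highest arrays were WT replicates 4 and 2. Without WT replicate 4, which stood apart in sex-linked genes, KO replicate 2 lay below the remaining WT arrays. The log2 difference was then -0.08 (limma adjusted p = 0.468). KO lungs averaged 7.45 ± 0.07 (SD, n = 3) and WT lungs 7.48 ± 0.12 (SD, n = 4), a ratio of 0.979-fold with a 95% interval of 0.867 to 1.11 (limma adjusted p = 0.811). A change of 1.22-fold would have passed at this standard error, the p-values of the other probe sets being held. On the same arrays 4 of 7 listed platelet markers, Ppbp, Gp1bb, Clec1b and Treml1, rose in KO and 3 did not pass, where 4% of all genes, each by its brightest probe set, were higher. The mean log2 level of the 7 was 8.49 to 8.77 on KO arrays and 7.90 to 8.33 on WT arrays (exact permutation p = 0.0571, adjusted p = 0.0929). Their part in the Tbxa2r level was not tested.

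In the 4 genes with 2 probe sets both had the same sign, positive for Chrm1, Bdkrb2 and Hrh1 and negative for Cysltr1. All 10 probe sets lay within the central 95% of the differences of probe sets in the same of 10 equal bins by level, and 5 lay within the central 50%. In the fifth bin from the lowest level, which held 4 of the 10, the median log2 difference of all probe sets was 0.08 and 69.1% were higher in KO. In the third bin, which held 3, the median was 0.09 and 80.9% were higher. The 3 negative receptor probe sets, of Cysltr1 and Tbxa2r, were at -0.20, -0.05 and -0.03. At the 3 probe sets above background on all 7 arrays, the change of signal that would have passed was read from the standard error. It was 1.25-fold for Chrm1 1439611_at, 1.18-fold for Bdkrb2 1442187_at and 1.22-fold for Tbxa2r. A smaller measured change would not have passed at that standard error. These values do not bound the true change: the 95% interval of Chrm1 1439611_at reached 1.27-fold. Chrm1 1439611_at and Bdkrb2 1442187_at lay below the background's 99th percentile on every array, so their values hold for the signal and not for the transcript. At the other 7 probe sets the signal was in the background range on some or all arrays, and no limit on a change of the transcript can be given.

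**Figure D3:**
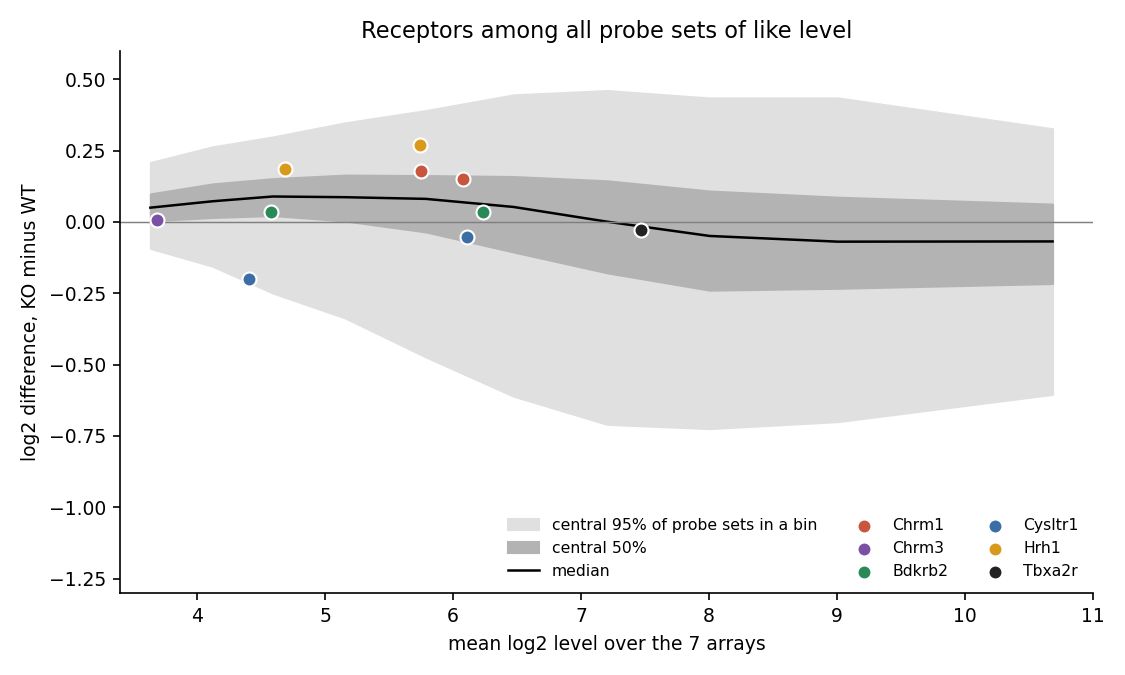
Log2 difference, KO minus WT, against the mean log2 level over the 7 arrays for the receptor probe sets (coloured points), with the median and central ranges of all 45037 probe sets in 10 bins by level (line and bands). All 10 points lie within the central 95% of their bin.

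**Figure D4:**
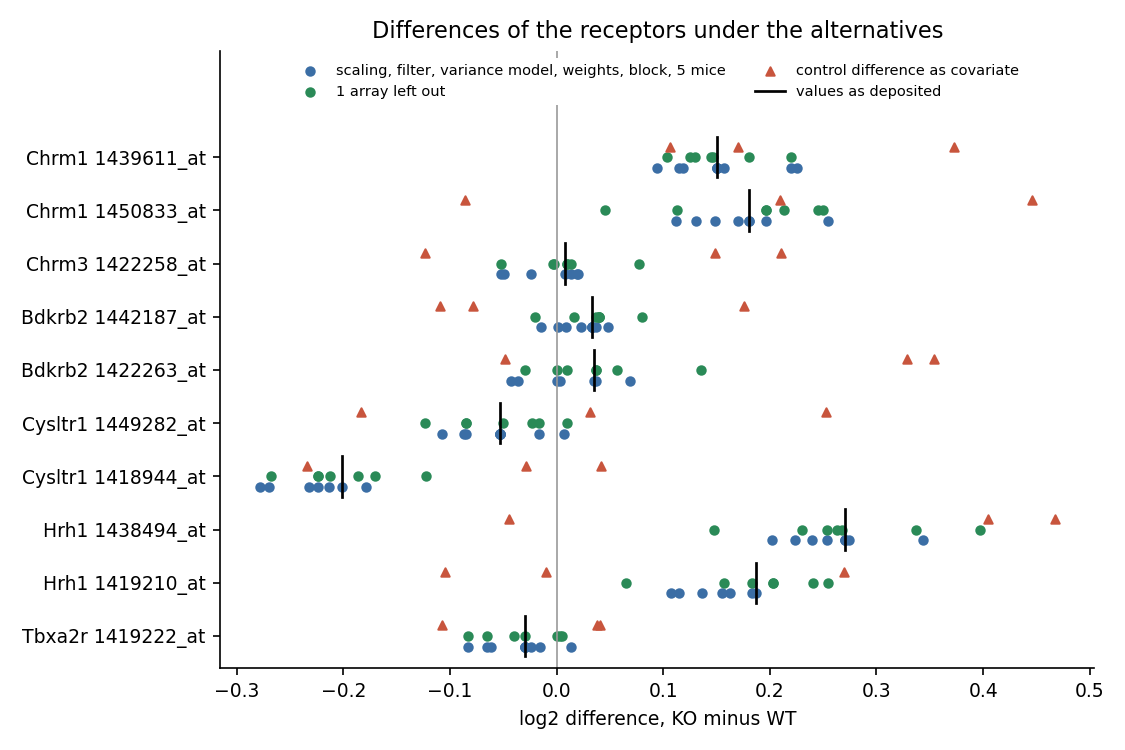
Log2 difference, KO minus WT, of each receptor probe set under every alternative that gave a value, with a black bar at the value from the deposited levels. Points of Chrm3, Bdkrb2 and Tbxa2r lie on both sides of 0 when single arrays are left out, while those of both Hrh1 probe sets stay above 0 and range from 0.15 to 0.40 and from 0.07 to 0.26.

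The sign of the smallest differences depended on single arrays, as the plot of the alternatives shows. Chrm3, both Bdkrb2 probe sets, Cysltr1 1449282_at and Tbxa2r changed sign without one or another array, and their differences stayed between -0.12 and 0.14. Both probe sets of Chrm1 and of Hrh1 stayed positive, and Cysltr1 1418944_at stayed negative, whichever array was left out.

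Facts of the arrays that touch these values were as follows. Gata5 itself read 4.98, 4.71 and 5.15 on KO arrays and 5.32, 5.53, 5.85 and 5.47 on WT arrays at probe set 1450126_at (limma adjusted p = 0.0336). The second Gata5 probe set, 1450125_at, read 4.75, 4.46 and 4.82 on KO arrays and 5.0, 4.88, 4.89 and 4.99 on WT arrays and did not pass (limma adjusted p = 0.0993). Both were above background on no array, and whether they lie in the deleted part is not known here. The beta-actin signal was stronger at the 3′ end than at the 5′ end by 4.74 to 5.39 log2 units on KO arrays and 3.88 to 4.31 on WT arrays, without overlap (exact permutation p = 0.0286, adjusted p = 0.0619). Of 12 smooth muscle markers 4 fell (Tagln, Hhip, Des and Cnn1), 0 rose and 8 did not pass, where 6.52% of all genes were lower, 4% were higher and 10.5% passed either way. Hhip and Des fell at their brightest probe sets only. Other probe sets of Hhip differed by -0.24, -0.03 and 0.01 and that of Des by -0.03, and none passed (limma adjusted p from 0.184 to 0.951). The brightest of the 12 markers, the actin Acta2, read 12.77 in KO and 12.61 in WT lungs on average and did not pass (limma adjusted p = 0.222). The mean log2 level of the list was 8.31 to 8.42 in KO and 8.57 to 8.75 in WT lungs (exact permutation p = 0.0286, adjusted p = 0.0619). Of 8 endothelial markers 4 fell (Pecam1, Emcn, Tie1 and Nos3) and 4 did not pass, with means of 8.96 to 9.29 in KO and 9.50 to 9.89 in WT. The markers that passed are named after their values were seen. Of 9 autonomic nerve markers 1, Dbh, rose at its brightest probe set, while its other 2 probe sets did not pass (limma adjusted p = 0.796 and 0.176), and 6 were above background on no array. None passed among 9 cardiac muscle, 8 mast cell, 7 macrophage and 5 club cell markers. Their mean log2 differences were -0.05, 0.05, -0.27 and 0.01. At an unadjusted p under 0.05 the counts were 0, 3, 1 and 0, beside 5712 of all 18193 genes. The part of these values in the receptor results was not tested.

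Other receptors of the same families and of other constrictor agonists were examined next, with each gene represented by the brightest of its probe sets over the 7 arrays. Of 37 measured, 1 passed with higher signal in KO, 0 with lower signal, and 36 did not pass. That is a share of 2.7%, against 10.5% of all 18193 genes, 4% higher and 6.52% lower. Of all probe sets above background on no array, as 21 of the 37 were, 2.54% passed. The one receptor that passed was Htr2c, a Gq-coupled serotonin receptor known mainly from brain, at probe set 1435513_at. It read 5.45, 5.89 and 5.85 on KO arrays and 5.30, 5.07, 5.05 and 4.83 on WT arrays, without overlap (limma adjusted p = 0.0212). It exceeded background on 1 KO array and no WT array, so no size of change is given. Its other probe set was above background on no array and did not pass (limma adjusted p = 0.363). Its call was lost without KO replicate 2 or 3 or WT replicate 3 or 4 (limma adjusted p up to 0.0753). Without KO replicate 2 the count was 4, all of them other genes (Htr3a, Adra1b, Htr5a and Oxgr1). Groups did not overlap for 8 of the 37 genes (21.6%), against 25.3% of all genes. Over the list 31 of 37 differences were positive with a median of 0.11, beside 58.6% positive and a median of 0.04 over all genes; 21 of the 37 were above background on no array, and probe sets above background on none had a median of 0.07.

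Apart from Htr2c, a close relative of Htr2a, the nearest subtypes of several of the 10 receptors did not pass; those named here were chosen after their values were seen. Ednrb, the endothelin B receptor, averaged 10.08 ± 0.08 in KO and 10.20 ± 0.26 in WT lungs (SD, n = 3 and 4; log2 difference -0.11, 95% interval -0.41 to 0.19, limma adjusted p = 0.580). Htr2b, a serotonin receptor of smooth muscle and valves, differed by 0.07 (95% interval -0.10 to 0.25, limma adjusted p = 0.534), above background on 5 arrays. Hrh2, the Gs-coupled H2 histamine receptor, was above background on all 7 arrays and its groups did not overlap, at 6.69 ± 0.13 in KO and 6.41 ± 0.16 in WT, but it did not pass (log2 difference 0.28, limma adjusted p = 0.109). Bdkrb1, Cysltr2 and Chrm4 were above background on no array.

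Genes that make, release or clear the agonists were compared to see whether the supply side differed. Of 35 measured, 1 rose, 1 fell and 33 did not pass, a share of 5.71% beside 10.5% of all genes. Mme, the cell-surface peptidase neprilysin that degrades bradykinin, endothelin and tachykinins, fell at probe set 1455961_at. It read 10.90, 11.01 and 10.83 on KO arrays and 11.22, 11.18, 11.32 and 11.31 on WT arrays, all KO arrays below all WT arrays, a ratio of 0.788-fold (95% interval 0.710 to 0.874; limma adjusted p = 0.0176). Nt5e, the ecto-5′-nucleotidase CD73 that makes extracellular adenosine, rose 1.28-fold (95% interval 1.1 to 1.48; limma adjusted p = 0.0495), with 9.57, 9.78 and 9.56 on KO arrays and 9.23, 9.38, 9.42 and 9.10 on WT arrays. The Mme call was lost without KO replicate 3 or WT replicate 3 or 4 (adjusted p up to 0.0542), and the Nt5e call on leaving out any single array of the 7 (up to 0.118). Other probe sets of Nt5e differed by 0.02 and 0.06, and that of Mme by -0.05. Groups did not overlap for 8 genes (22.9%), beside 25.3% of all genes, and the median log2 difference was 0.04 both in the list and over all genes.

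The G protein subunits, effectors and receptor-silencing proteins downstream of the receptors were measured at 37 genes, of which 35 were above background on all 7 arrays. Of these 37, 0 rose, 3 fell and 34 did not pass, a share of 8.11% beside 10.5% of all genes and 15.7% of the probe sets above background on all 7 arrays. In this fit the count is therefore no larger than the background share. With the probe sets of each gene averaged, 7 of the 37 passed (1 higher and 6 lower in KO), beside 9.61% of all genes. Arrb1, beta-arrestin 1, which uncouples activated receptors from their G proteins, fell at its probe set 1460444_at to 8.98, 8.32 and 8.42 on KO arrays, against 9.56, 9.31, 9.28 and 9.43 on WT arrays. That is a ratio of 0.566-fold (95% interval 0.445 to 0.72; limma adjusted p = 0.0161), with no overlap between the groups. Orai1, the pore of the store-operated calcium channel, had 7.63, 7.47 and 7.27 on KO arrays and 8.16, 7.93, 8.10 and 7.85 on WT arrays at 1424990_at. It fell, without overlap, to a ratio of 0.681-fold (95% interval 0.577 to 0.805; limma adjusted p = 0.0175), while its other probe set differed by 0.08 on the log2 scale. Gnai3, a Gi alpha subunit, had 10.37, 10.50 and 10.16 on KO arrays and 10.61, 10.70, 10.82 and 10.88 on WT arrays. Again without overlap, it fell to 0.753-fold (95% interval 0.646 to 0.877; limma adjusted p = 0.0345), with the second probe set at -0.17. Gnaq, the Gq alpha subunit, did not pass, at 11.55 ± 0.11 in KO and 11.47 ± 0.06 in WT lungs (SD, n = 3 and 4; limma adjusted p = 0.477; named after its value was seen). The Arrb1 call did not survive the removal of KO replicate 3 (limma adjusted p = 0.0608), that of Orai1 was lost without KO replicate 3 or WT replicate 3 (up to 0.0529), and that of Gnai3 without KO replicate 1 or 3 or any of WT replicates 2 to 4 (up to 0.0929). The list's median log2 difference was -0.10, beside 0.04 over all genes, and groups did not overlap for 11 genes (29.7%), beside 25.3% of all genes.

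**Figure D5:**
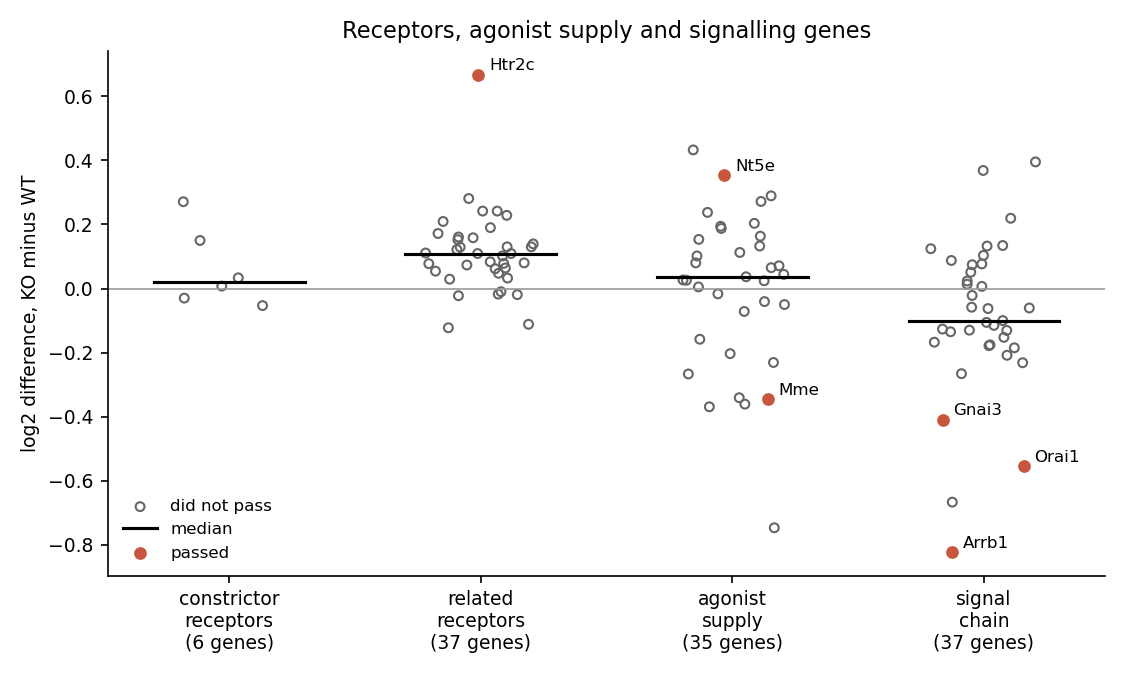
Log2 signal difference, KO minus WT, of each measured gene in 4 lists (constrictor receptors, related receptors, agonist supply, signal chain), each gene by its brightest probe set, with a bar at the list's median. Filled points passed at adjusted p under 0.05: 0 of 6, 1 of 37, 2 of 35 and 3 of 37 genes.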

How the data were processed

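The table was deposited by the authors as log2 levels of 45101 probe sets on 7 arrays. Per the submitters' processing notes the tools were Affymetrix Expression Console, RMA and MAS5, in unstated versions and roles; that the values are on a log2 scale was read from their range. The array medians were nearly equal (6.10 to 6.15), so the levels were already scaled between arrays, which can hide a shift of all genes. The 64 control probe sets were left out of the fit. Of the 45037 others the platform annotation gives 1 gene for 34945, several for 932 and none for 9160; 34741 were named through the gene identifier in a RefSeq table of GRCm38.p6. The number of arrays limits the precision.

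The main test was limma 3.58.1 (lmFit, then eBayes; R 4.3.3) with genotype alone in the model, no level filter, and Benjamini-Hochberg adjustment over all 45037 probe sets; intervals are at 95%. The same fit served the lists of related receptors (37 of 44 genes matched), agonist supply (35 of 36), signal chain (37 of 41) and cell markers. Named genes were all receptors with a probe set and, per list of related, supply or signal genes, those that passed, up to 6. Single values per array were compared by exact two-sided permutation of the absolute difference over 35 splits. The receptors and lists were chosen with earlier results of these data known. The fit was tested on simulated data. The samples were treated as unpaired. Same-numbered deviations from the group means correlated at 0.04, -0.11 and 0.05, and differently numbered ones at -0.18 to 0.23. With so few arrays this does not settle whether the replicate numbers pair the samples. Figures were drawn with matplotlib 3.10.9.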

Additional observations from a re-analysis of the deposited data

Results flagged for a closer look

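In groups of 4 arrays a value was singled out when its gap to the nearest other array, divided by the range of the group, exceeded Dixon's 95% critical value. Of 29 values tested in WT lungs 5 did so, where chance gives about 1 in 20. At Chrm1 1450833_at, WT replicate 1 read 5.47, below the other WT arrays at 5.72 to 5.77. At Bdkrb2 1442187_at the same array read 6.17, below 6.23 to 6.24. Its 95th percentile of the background probe sets was also the lowest, 5.72 against 5.86 on each of the others. The mean of the mast cell markers was lowest on WT replicate 3, at 7.17 against 7.21, and the mean of the platelet markers was highest on WT replicate 2, at 8.33 against 7.90 to 7.94. The group of 3 KO arrays was not tested in this way.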

How the results depend on the processing

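The receptor count of 0 was also found under 19 of 21 alternatives, every left-out array among them, though a count of 0 cannot fall. Some of the 19 could hardly give another count. With a covariate or in the 5 mice, 0 to 13 of all 45037 probe sets passed, so the receptor count there decides nothing. The filters left fewer receptor probe sets to test. These were 6 with the level filter at the 40th percentile and 4 when above background on at least 3 arrays. With the brightest filtered probe sets they were 5. The receptor count was 1 after a further quantile normalization (Cysltr1 1418944_at) and 1 when a gene's probe sets were averaged (Hrh1). The averaged Hrh1 value, an alternative chosen after seeing the data, kept its call under 4 of 17 settings. Over all probe sets 4456 passed, against 2069 with the brightest probe set per gene and a level filter, 1748 with averaged probe sets (fewer features in both), 1974 to 4251 with 1 array left out, and 0 in the 5 mice numbered lowest (8007 at an unadjusted p under 0.05). With a control difference as covariate 0 (beta-actin 3′ to 5′; 7989 unadjusted), 1 (beta-actin 3′ to middle) and 13 (Gapdh) passed; each covariate separates KO from WT without overlap, so it cannot be told apart from genotype. With the replicate block 1322 passed, and 0 receptors, 0 related receptors, 1 supply and 2 signal genes. Whether the numbers pair the samples is not known. Of the probe sets that passed, 35.6% were higher in KO, against 46.5% after quantile normalization and 24.1% after median centring. At an unadjusted p under 0.05 the main fit had 13224 of 45037 probe sets.

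Related receptors (1 passed, Htr2c) gave 0 with the level filter at the 40th percentile, when above background on at least 3 arrays, with any covariate or in the 5 mice, 1 with the brightest filtered probe sets, which was Ptger1 in place of the filtered-out Htr2c, and 0 to 4 with 1 array left out. Agonist supply (2) gave 4 after quantile normalization, 1 after median centring or with array weights, 0 with any covariate, the 5 mice or averaged probe sets, and 0 to 3 with 1 array left out. Signal chain (3) gave 5 after median centring, 6 with the level filter at the 40th percentile, 5 when above background on at least 3 arrays, 5 with the brightest filtered probe sets, 7 with averaged probe sets, 0 with any covariate or the 5 mice, and 0 to 3 with 1 array left out. Over all features tested the counts were 4324 of 45037 after quantile normalization, 4610 of 45037 after median centring and 4729 of 27023 with the level filter. They were 4664 of 24466 when above background on at least 3 arrays, and 2069 of 13285 with the brightest filtered probe sets. With averaged probe sets 1748 of 18193 genes passed (9.61%). Receptor probe sets above background (3) numbered 6 against the 90th percentile and 1 against the 99th. They numbered 6 against the array's 40th percentile and 8 against the background median.

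Signs of log2 differences that turned, none of them called, were as follows. After quantile normalization Chrm3 was at -0.052, Bdkrb2 1422263_at at -0.043 and Tbxa2r at 0.014. After median centring Chrm3 was at -0.024. After cyclic loess Chrm3 was at -0.049, and Bdkrb2 at -0.015 (1442187_at) and -0.036 (1422263_at). With the beta-actin 3′ to 5′ covariate Bdkrb2 1442187_at was at -0.078, Cysltr1 at 0.031 (1449282_at) and 0.041 (1418944_at), Hrh1 1419210_at at -0.10 and Tbxa2r at 0.038. With the beta-actin 3′ to middle covariate Chrm1 1450833_at was at -0.085, Chrm3 at -0.12, Bdkrb2 1422263_at at -0.048, Cysltr1 1449282_at at 0.25 and Hrh1 1438494_at at -0.045. With the Gapdh covariate Bdkrb2 1442187_at was at -0.11, Hrh1 1419210_at at -0.010 and Tbxa2r at 0.041. In the 5 mice Cysltr1 1449282_at was at 0.0067. With 1 array left out the ranges were -0.0525 to 0.0775 for Chrm3, -0.02 to 0.08 for Bdkrb2 1442187_at, -0.03 to 0.135 for Bdkrb2 1422263_at, -0.12 to 0.01 for Cysltr1 1449282_at and -0.083 to 0.005 for Tbxa2r. The causes were not tested.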
